A study of Mus musculus with 8 samples.

Results

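The endocardium is the endothelial sheet that lines the heart chambers. Its cells derive from early cardiac endothelium, give rise to valve mesenchyme and part of the coronary vessels in the embryo, and signal to the muscle beneath them through ligands such as neuregulin 1, which acts on ErbB receptors of cardiomyocytes. In the adult mouse heart they are known for Npr3, the clearance receptor of natriuretic peptides, and for the neuregulin gene Nrg1, and they lack the program of fatty acid handling that marks the capillary endothelium of the myocardium.

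Endocardial nuclei were chosen by a rule on marker genes. A barcode was kept if it held at least 800 UMIs outside mitochondrial genes, if the summed share of Npr3, Smoc1, Nrg1, Tmem108, Chrm3 and Cemip2 was at least 5 times that of its whole library with at least 4 UMIs, if the endothelial genes Ptprb, Flt1, Pecam1, Cdh5 and Emcn were together at or above the level of the library, and if cardiomyocyte genes (Ryr2 and Ttn), fibroblast genes (Gpc6, Bicc1 and Pdgfra) and lymphatic genes (Mmrn1, Reln and Prox1) were at most 1, 1 and 4 times that level. This defined 4264 of 169193 barcodes, or 2.52%. Just outside the limit of 5, between 4 and 5, lay 467 barcodes that met the other conditions, and just inside it, between 5 and 6, lay 403. The 19 genes of this rule were not tested in barcodes that they chose. The 6 endocardial markers among them are described below, and levels of the others are not given by genotype.

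The libraries came from nuclei of whole hearts of 9-week-old male mice, 4 WT and 4 Taz-KO (Tafazzin-knockout, a model of Barth Syndrome), with 1 library per mouse and no treatment. Strain, littermate status and which part of Taz the knockout removes are not given in the sources used here, and the knockout is not stated to be limited to a cell type. In order of replicate, the endocardial nuclei numbered 591, 663, 596 and 492 in the WT mice. They numbered 37, 1026, 789 and 70 in the Taz-KO mice, so Taz-KO replicates 1 and 4 were far thinner than the others. These 2 libraries held 3492 and 5571 barcodes in all, where every other library held 21190 to 36308. The main results are therefore also given without these 2 libraries. Each of the larger counts exceeds the input per heart reported in the paper, which also kept fewer barcodes in total after its own filters. Whether each barcode held a nucleus was not tested. The word nuclei here stands for chosen barcodes, and shares of all barcodes rest on these larger counts. The summed endocardial counts held 222689 to 5538120 UMIs per mouse, with a median of 2546 to 7207 UMIs per barcode. A barcode sequence that occurred in more than 1 library was found once among these nuclei. No doublet caller was used, and leaving out 1033 suspected doublets was tried as an alternative.

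Levels are CPM, the usual count-per-depth scale, here relative to the UMIs of a sum outside mitochondrial genes. Comparisons of genotypes use CPM scaled by TMM (trimmed mean of M-values, a correction of library size, with factors of 0.952 to 1.03), and comparisons of cell groups use plain CPM. On the TMM scale, 1 UMI was worth 3.13 and 4.38 CPM in Taz-KO replicates 1 and 4 and at most 0.380 CPM in each other mouse. Changes are log2 fold changes of Taz-KO over WT from the quasi-likelihood F test of edgeR with the mouse as replicate, given with their SE, and p-values were adjusted by Benjamini-Hochberg over 13131 genes. Nothing states how the mice relate to each other, so p-values measure the spread between these mice.

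The 6 chosen markers did not all appear in each nucleus. At least 3 of them were found in 97.6% of the endocardial nuclei, and all 6 in 27.9%. Npr3 was found in 81.4% to 100% of the endocardial nuclei of a mouse, with a median over mice of 94.9%, and in 11.4% to 74.6% of the cardiomyocyte barcodes, which should lack it. The median depth per mouse was 2546 to 7207 UMIs in endocardial nuclei and 7877 to 26372.5 UMIs in cardiomyocyte barcodes. With every barcode thinned to 800 UMIs, the median for Npr3 was 65.4% in endocardial nuclei and 2.90% in cardiomyocyte barcodes. It was 7.81% in lymphatic barcodes and 3.81% in other endothelial barcodes, whose own rule held the summed markers at or below the library level. The thinned median for Chrm3 was 59.6% in endocardial nuclei and 26.6% in lymphatic barcodes. Of the 4264 endocardial nuclei, 1152 had the lymphatic genes above the library level. Nrg1 was the sparsest of the 6, found in 27.1% to 64.9% of the endocardial nuclei and in 1.63% to 16.4% of the cardiomyocyte barcodes.

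Markers that the rule did not use were compared as a check of the name, with no test, since the nuclei had been selected. Of 16 further endocardial genes, 11 were higher in endocardial than in other endothelial barcodes of every mouse and none was lower in every mouse. Over all genes of at least 1 CPM in either group, 8.03% were higher in every mouse and 6.67% were lower. The 11 genes were Cdh11, Adgrg6, Cytl1, Gata4, Gata6, Hand2, Plagl1, Cgnl1, Tmem100, Vwf and Bmp6. Cdh11, a mesenchymal cadherin, lay between 491 and 960 CPM in the endocardial sums and between 15.6 and 69.7 CPM in other endothelial barcodes. Vwf, which encodes von Willebrand factor, lay between 510 and 1048 CPM against 61.6 to 214 CPM. Gata4 and Gata6, cardiac transcription factors, lay at 149 to 320 and 157 to 268 CPM against 46.8 to 99.3 and 49.7 to 87.9 CPM.

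The 5 markers that did not separate in this way were Nfatc1, Hapln1, Gata5, Tbx20 and Edn1. Nfatc1, the transcription factor of endocardium and forming valves, lay at 67.4 to 171 CPM against 31.2 to 125 CPM, so the ranges overlapped. Against lymphatic barcodes, Nfatc1 was lower in every mouse and 12 of the 16 genes were higher, beside 4.94% and 5.43% of all genes. Hapln1, a hyaluronan link protein, stayed at or below 10.1 CPM and Gata5 at or below 4.49 CPM in endocardial sums. Of the 4 valve markers, Wnt9b was at most 22.4 CPM and Cldn11 at most 2.53 CPM. Most of the endocardial markers were thus higher in these nuclei than in other endothelium, while Hapln1, Gata5 and Cldn11 were at or near 0.

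All 10 capillary markers were lower in endocardial than in other endothelial barcodes of every mouse. Rgcc, a cell cycle regulator of capillary cells, lay at 18.0 to 61.5 CPM against 152 to 336 CPM, and Btnl9 at 6.37 to 46.2 CPM against 125 to 322 CPM. The fatty acid handling genes Cd36 and Fabp4 lay at 225 to 967 and 148 to 818 CPM against 1154 to 2834 and 952 to 2823 CPM. The endocardial nuclei needed the 5 endothelial genes at the library level or more, and the other endothelial barcodes at 5 times that level. Of these 5 genes, Ptprb, Flt1 and Cdh5 were also lower in every mouse and none was higher. Against other endothelial barcodes taken from 2 times the library level, 9 of the 10 capillary markers were lower in every mouse. The median log2 ratio was then −1.13, in place of −1.67. The part of the unequal limits in this was not tested. Against lymphatic barcodes, 2 of the 10 capillary markers were lower in every mouse and 1 was higher, with a median log2 ratio of −0.0115. Arterial genes were mostly lower too, with 6 of 10 lower in every mouse, among them the transcription factor Sox17 and the Notch ligand Dll4. Of 6 venous genes, Nr2f2, the transcription factor of venous identity, the fenestral diaphragm gene Plvap and the adhesion gene Vcam1 were higher in every mouse. Of 5 lymphatic genes, Lyve1 and Pkhd1l1 were higher than in other endothelial barcodes of every mouse, while Flt4, the receptor of lymphatic growth, lay at 28.5 to 62.9 CPM against 383 to 867 CPM in lymphatic barcodes.

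**Figure D1:**
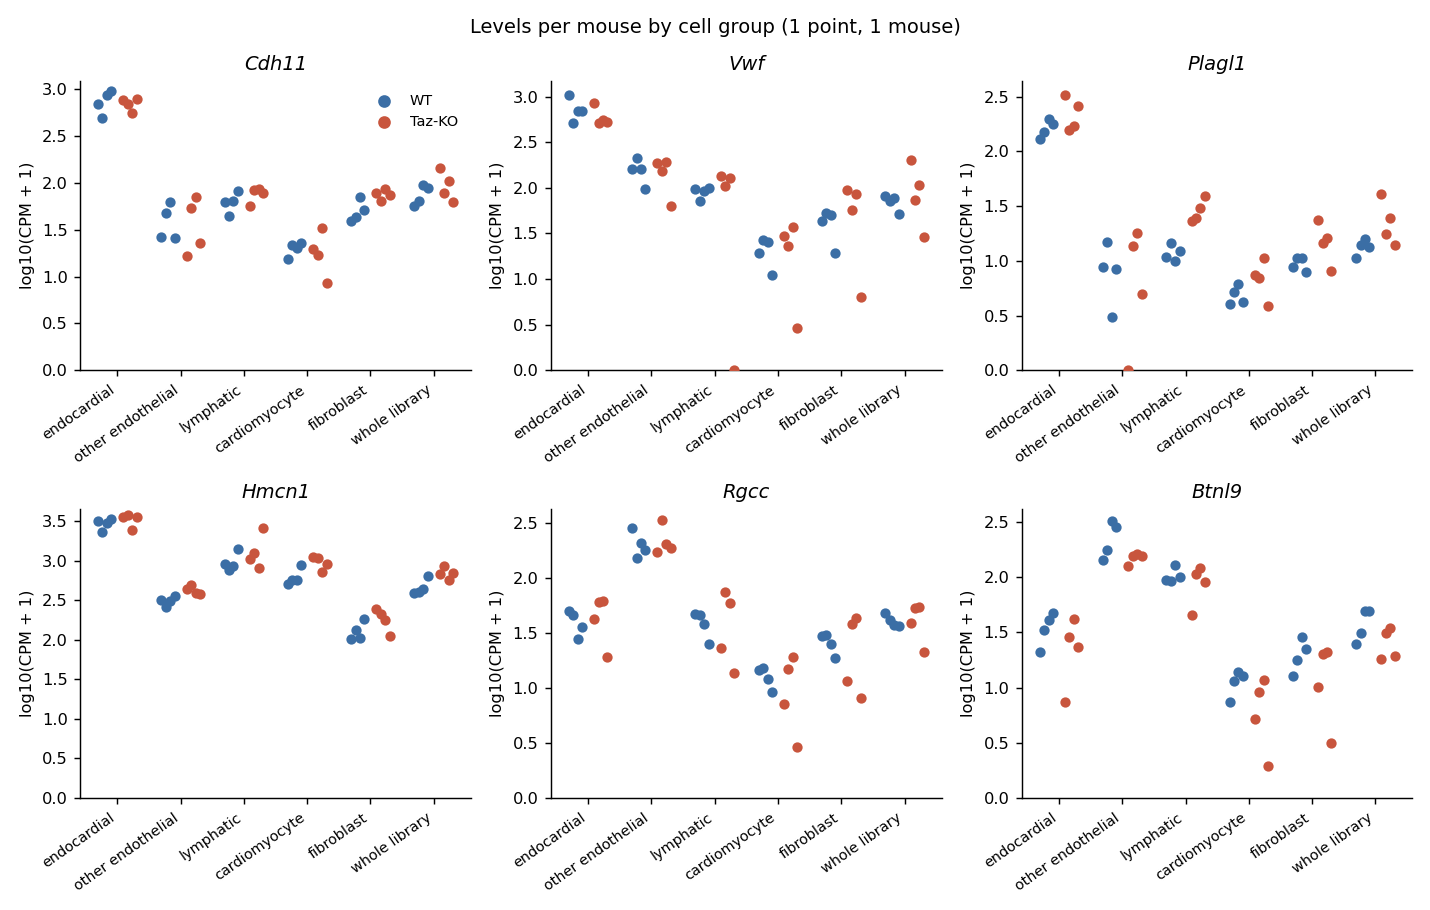
Level of 6 genes per mouse in 5 groups of barcodes and in the whole library, as log10 of CPM plus 1, with 1 point for each of 4 WT (blue) and 4 Taz-KO (red) mice. Every mouse's Cdh11, Vwf and Plagl1 are higher in the endocardial group, where Cdh11 spans 491 to 960 CPM, than in its other groups, and the capillary genes Rgcc and Btnl9 are highest in other endothelial barcodes.

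The genes outside the rule that led by their ratio to other endothelial barcodes were of several kinds. Genes of at least 50 CPM in each mouse were ordered by the lowest ratio over the 8 mice, with 1 CPM added to both levels. Epha7, an ephrin receptor, led with a ratio of at least 13.9 in each mouse and 248 to 515 CPM, followed by Rasgef1b at 12.1, the collagen gene Col23a1 at 11.7 and Wdr17 at 11.2. The list went on with the imprinted zinc finger gene Plagl1, the adhesion gene Nrxn3, Cdh11 and the sodium leak channel gene Nalcn. Hmcn1, a large matrix protein of the hemicentin family, followed with 2330 to 3821 CPM against 262 to 496 CPM. Then came the kinase gene Bmx, the collagen IV gene Col4a3, Greb1l, Prkg1, Gm20631, the potassium channel gene Kcnt2, Rps6ka2, Megf6, Meis2, Fgf14 and the integrin-like gene Itgbl1, which closed the 20 at a ratio of 4.64. Prkg1 encodes the kinase that is activated by cyclic GMP, the second messenger of natriuretic peptides and nitric oxide, and lay at 2739 to 5613 CPM against 140 to 711 CPM. Some of these genes are shared with lymphatic barcodes: Wdr17 reached 360 to 1505 CPM there. Col23a1 lay at 178 to 434 CPM in lymphatic barcodes and at 115 to 278 CPM in the endocardial sums. Hmcn1 and Prkg1 lay at 757 to 2601 and 1101 to 2390 CPM in lymphatic barcodes. Others were lower there, such as Epha7 at 11.1 to 137 CPM and Rasgef1b at 11.1 to 151 CPM.

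RNA of other cells was part of every sum. Cardiomyocyte markers, 10 genes summed, made up 2438 to 16612 CPM of the endocardial sums against 15049 to 21699 CPM of the whole libraries, and none of the 10 was at 0. Within a mouse they stood at 0.162 to 0.766 of the level of its library. Myl2, the ventricular myosin light chain, lay at 171 to 3773 CPM in endocardial and at 635 to 2365 CPM in cardiomyocyte barcodes. The 8 fibroblast markers made up 930 to 9328 CPM and the 6 macrophage markers 347 to 1129 CPM. For this reason the level in the endocardial sums is set beside that in the whole libraries for the called genes and for some of the others.

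Whether the share of endocardial nuclei differs between genotypes was asked first. Endothelial barcodes were those with the 5 endothelial genes at or above the library level and at least 4 of their UMIs, together with the endocardial nuclei. Of these, the endocardial ones were 8.45%, 5.83%, 8.37% and 7.07% in the WT mice. They were 2.45%, 7.78%, 8.17% and 10.1% in the Taz-KO mice, with Wilson 95% intervals of 1.79% to 3.36% for replicate 1 and 8.11% to 12.6% for replicate 4. These intervals cover counting error only. The mean was 7.43% ± 1.24 for WT and 7.14% ± 3.29 for Taz-KO (SD, 4 mice each), a difference below the SD of either group (p = 0.857 by an exact permutation test, two-sided, where the smallest possible p is 0.0286). Without Taz-KO replicate 1 the difference was 1.27 percentage points (exact permutation p = 0.343), and without both thin mice 0.54 (exact permutation p = 0.733). The Taz-KO mice lay both below and above all WT mice. Of all barcodes the means were 2.50% ± 0.233 and 2.09% ± 0.821 (SD, n = 4 each, exact permutation p = 0.457), with 2.75% for Taz-KO without the thin mice (exact permutation p = 0.200). In such data a change in the number of nuclei and a change in the RNA captured from each cannot be told apart.

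**Figure D2:**
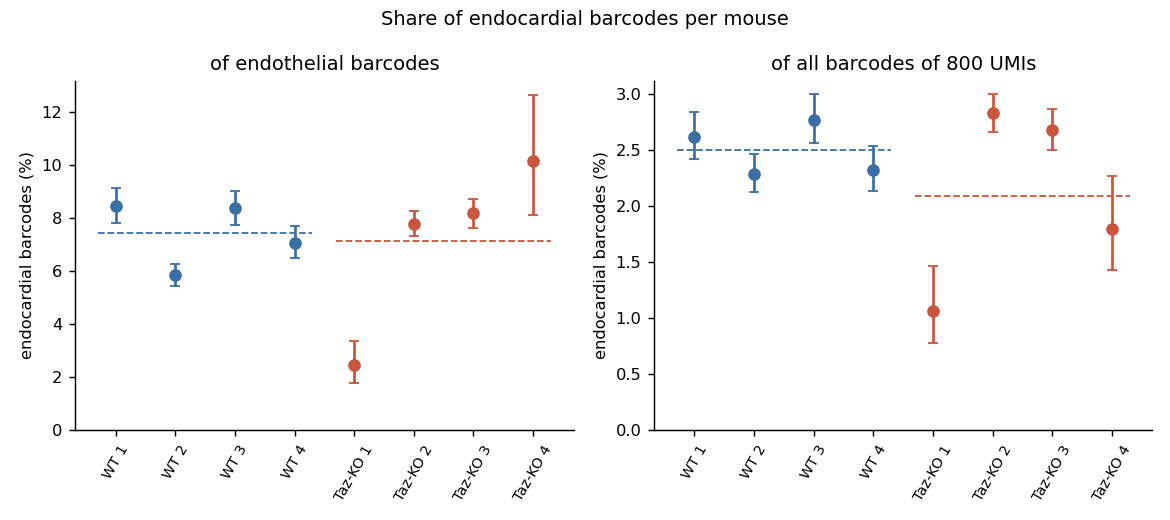
Endocardial barcodes per mouse as a percentage of the endothelial barcodes (left) and of all barcodes with at least 800 UMIs (right). Bars are Wilson 95% intervals and dashed lines are group means; Taz-KO replicate 1 is lowest at 2.45% and Taz-KO replicate 4 highest at 10.1% on the left.

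Next, the markers that define the cells were compared between genotypes, each in nuclei chosen without it. None passed the test. Npr3 averaged 1421 ± 357 CPM in WT and 1568 ± 224 CPM in Taz-KO mice (SD, n = 4 each), a log2 fold change of 0.14 (SE 0.22, edgeR adjusted p = 1.00). Nrg1 was at 1011, 948, 762 and 949 CPM in WT and at 1110, 563, 334 and 341 CPM in Taz-KO. Taz-KO replicate 1 was thus the highest of the 8 mice and the other 3 Taz-KO mice were lower than every WT mouse. The log2 fold change of Nrg1 was −0.65 (SE 0.35, edgeR adjusted p = 0.863), it was −1.15 without Taz-KO replicate 1 (adjusted p = 0.155), and −1.03 without both thin mice (adjusted p = 0.252). Tmem108 had a log2 fold change of −0.48 (SE 0.24, adjusted p = 0.793), with 3 of 4 Taz-KO mice below all WT mice, −0.67 without Taz-KO replicate 1 (adjusted p = 0.537) and −0.90 without both thin mice (adjusted p = 0.283). Smoc1 at −0.20 (SE 0.25), Chrm3 at 0.06 (SE 0.29) and Cemip2 at 0.09 (SE 0.21) moved by less than their errors. Without both thin mice Smoc1 was at −0.60 (edgeR adjusted p = 0.619), while Chrm3 was at −0.226 and Cemip2 at −0.0854.

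**Figure D3:**
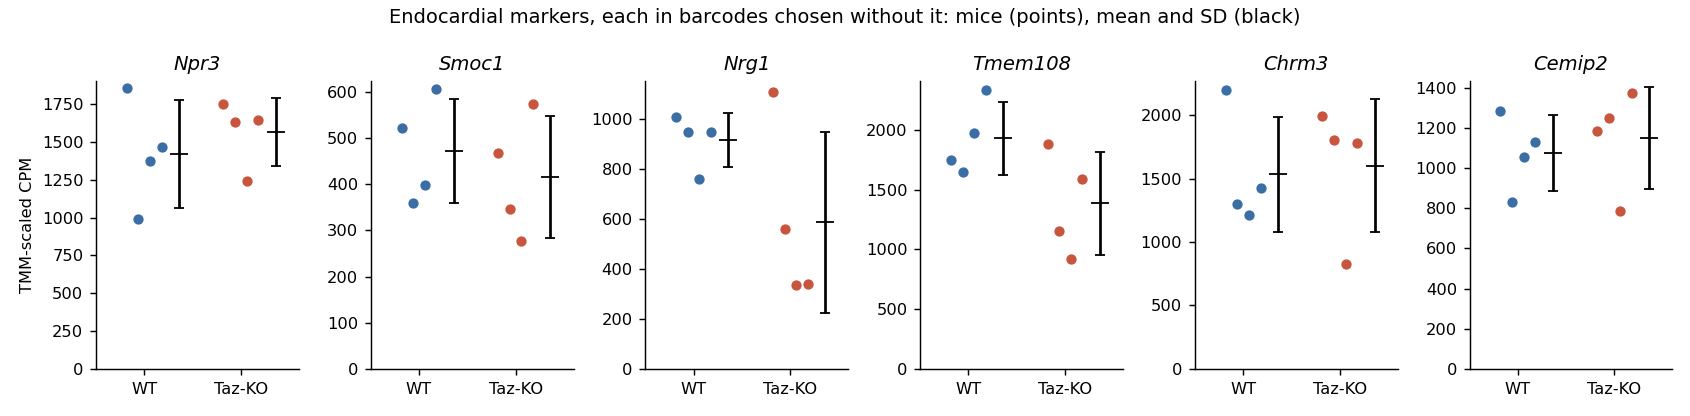
TMM-scaled CPM of the 6 endocardial markers per mouse, each measured in nuclei chosen by the other 5, with the mean and SD in black. For Nrg1, 3 Taz-KO mice lie at 334 to 563 CPM, below the WT range of 762 to 1011 CPM, and Taz-KO replicate 1 lies at 1110 CPM.

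Taz itself, which encodes the cardiolipin transacylase and lies at chrX:74281912-74290151 (GRCm38), was at 36.7, 38.5, 34.4 and 34.2 CPM in WT and at 15.6, 28.2, 22.4 and 13.1 CPM in Taz-KO. The groups did not overlap, as was so for 2.57% of all genes in the direction of lower levels and for 1.98% in that of higher ones. The log2 fold change was −0.64 (SE 0.21), and the gene did not pass (edgeR adjusted p = 0.480). Counts from the 3′ end of transcripts may fall outside the deleted part, so this is no check of the knockout. Taz stood at 0.806 of its library level in the endocardial sums. Among the other 7 genes of cardiolipin synthesis and remodeling none passed the test, and the acyltransferase gene Lclat1 was at −0.26 (SE 0.18, adjusted p = 0.935), or 0.38 under the subtraction of library RNA set per mouse (described below).

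Across all genes, 25 of 13131 passed an adjusted p of 0.05, 18 higher in Taz-KO (0.137%) and 7 lower (0.0533%). At an unadjusted p of 0.05, 4.01% of the genes were higher and 2.49% lower. Vmn2r3 was the 1 gene to pass the study's own thresholds (0.001 for the adjusted p and 0.58 for the size of the log2 fold change). The study applied them to a test of single nuclei after its correction for ambient RNA. Here they were applied to sums per mouse of uncorrected counts, so the counts of genes are not comparable. The other 17 higher genes were Gdf15, Tenm4, Phgdh, Slc24a2, Fgf21, Asns, Mthfd2, Trib3, Fam227b, Tfcp2l1, Extl1, Slc5a1, Tex22, 4933431K23Rik, Slc7a5, Gm12092 and Gm15563. The 7 lower genes were Strit1, Gm20757, Rmst, Gm24474, Gm26862, Rpl3l and Trabd2b. With DESeq2, 61 genes passed, 44 higher and 17 lower, among them the 25. Without Taz-KO replicates 1 and 4 together 46 passed, 43 higher and 3 lower, and 20 of the 25 were among them. The 5 genes that no longer passed kept their direction and were Strit1 (edgeR adjusted p = 0.0640), Rmst (0.0784), Trabd2b (0.0594), Rpl3l (0.125) and Gm15563 (0.0690).

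Most of the called genes stood below their library level in the endocardial sums. There, 17 of the 25 stood below 0.5 of their library level, with a median of 0.334, where the median over all genes tested was 1.06. Above the library level stood Fgf21, Strit1 and Gm15563, at 1.24, 1.09 and 1.65. When 20% of each sum was subtracted in the proportions of its library, 9 of the 25 genes still had enough counts to be tested and no gene passed over all 12432 tested (477 were at an unadjusted p below 0.05). The called genes that were no longer tested, among them Gdf15, Asns, Vmn2r3 and Slc7a5, cannot be judged by this subtraction. It was not run without the thin mice, whose few counts weigh on which genes can be tested. In an alternative chosen after seeing the data, the subtracted share was set for each mouse by the level of its cardiomyocyte markers relative to the library. The genes below whose direction turned under this subtraction are named as such. The part of RNA from other cells in these calls was not tested.

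**Figure D4:**
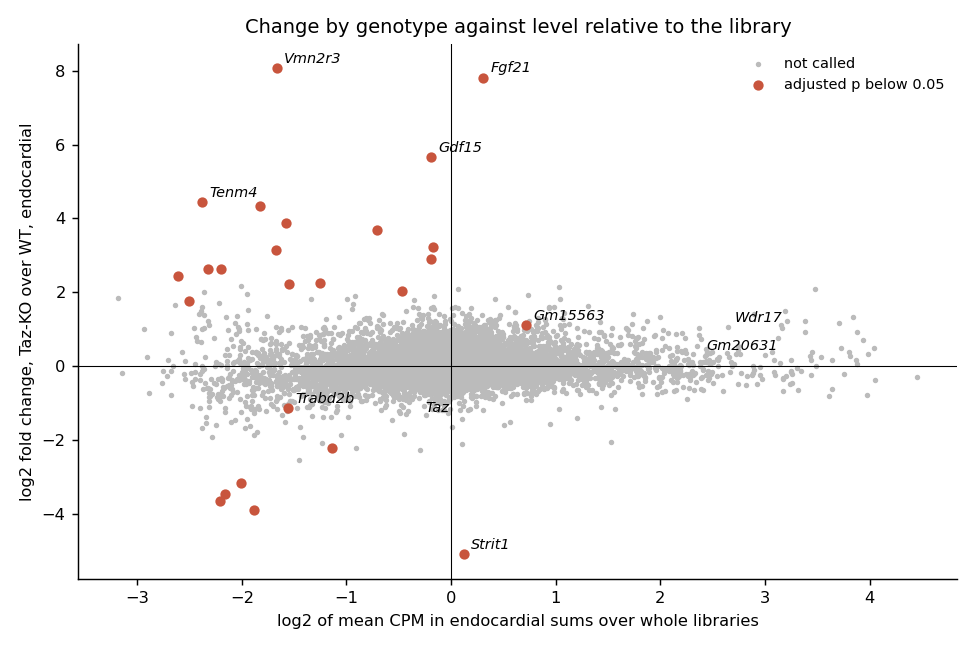
Log2 fold change of Taz-KO over WT in the endocardial sums against the log2 ratio of the mean level in endocardial sums to that in whole libraries, 1 point per gene tested. Red points are the 25 genes at an adjusted p below 0.05; 22 of them lie left of 0, and genes far to the right, such as Wdr17 and Gm20631, did not pass.

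Of the pathway lists, the integrated stress response held 7 called genes and the others none. This program is switched on when eIF2α is phosphorylated, and the factor ATF4 then raises genes of amino acid transport, of serine and one-carbon metabolism and of secreted stress hormones. Of 26 genes on the list, 23 were tested, 22 had a positive change, 16 were higher at an unadjusted p of 0.05, and 7 passed and were higher in Taz-KO. The median log2 fold change of the list was 1.13, also with Fgf21 at its bound (below), beside 0.00 over all genes tested. The list stood at a median of 0.775 of the library level, and 4 of the 23 genes were above it.

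The 2 secreted factors were called. Gdf15, a stress hormone of the TGF-beta family, was at 1.06, 0.676, 1.79 and 0.380 CPM in WT and at 50.04, 56.3, 68.0 and 4.38 CPM in Taz-KO (log2 fold change 5.66, SE 0.52, edgeR adjusted p = 0.00110). All Taz-KO mice were above all WT mice, and the value of Taz-KO replicate 4 was 1 UMI. The whole libraries held 0.890 CPM in WT and 51.7 CPM in Taz-KO on average. Fgf21, the fasting and stress hormone, was at 0 in each WT mouse and at 9.38, 7.40, 13.5 and 4.38 CPM in Taz-KO (adjusted p = 0.00485), from 83 UMIs. Against the limit of 3 UMIs over the WT group, which held none, Fgf21 was 44.2-fold higher. The lower end of the exact 95% interval of counting for the ratio of Taz-KO to WT was 35.1.

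Among enzymes, Phgdh, the first enzyme of serine synthesis, was at 3.17, 3.60, 1.79 and 1.14 CPM in WT and at 12.5, 26.9, 29.2 and 13.1 CPM in Taz-KO (log2 fold change 3.23, SE 0.37, edgeR adjusted p = 0.00304). Asns, asparagine synthetase, rose from 2.25 ± 0.839 to 22.4 ± 18.1 CPM (SD, n = 4 each; log2 fold change 3.70, SE 0.46, adjusted p = 0.00485). Mthfd2, a mitochondrial folate enzyme, was at 7.66, 8.56, 8.96 and 6.83 CPM in WT and at 46.9, 67.0, 82.6 and 8.75 CPM in Taz-KO (log2 fold change 2.89, SE 0.36, adjusted p = 0.00485). Its groups overlapped, since Taz-KO replicate 4, with 2 UMIs, was below the highest WT mouse. The pseudokinase gene Trib3 rose from 9.29 ± 2.77 to 35.7 ± 9.33 CPM (log2 fold change 2.04, SE 0.26, adjusted p = 0.00485) with no overlap. The amino acid transporter gene Slc7a5 rose from 2.14 ± 0.488 to 8.39 ± 4.00 CPM (log2 fold change 2.21, SE 0.35, adjusted p = 0.0262). Without both thin mice all 7 passed, with log2 fold changes of 5.93 for Gdf15, 3.45 for Phgdh, 4.06 for Asns, 3.21 for Mthfd2, 2.13 for Trib3 and 2.36 for Slc7a5, and an edgeR adjusted p of 0.0254 for Fgf21. With 1 mouse left out, the calls of Gdf15 and Fgf21 held and those of the other 5 did not all hold. Without Taz-KO replicate 2 these 5 did not pass (adjusted p of 0.0532 to 0.136), and without Taz-KO replicate 3 Asns, Mthfd2, Trib3 and Slc7a5 did not (0.0518 to 0.234). Slc7a5 also did not pass without WT replicate 1, 2 or 3 (0.0844, 0.107 and 0.0892), nor Mthfd2 without WT replicate 1 (0.0540). In the endocardial sums Gdf15, Phgdh and Mthfd2 stood at 0.878, 0.886 and 0.875 of their library level, Asns at 0.610, Trib3 at 0.722 and Slc7a5 at 0.341.

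The other cell groups come from the same mice and libraries, so their values are given side by side and are no independent support. Asns had a log2 fold change of 3.29 (SE 0.38, edgeR adjusted p = 0.00715) in other endothelial barcodes taken from 2 times the library level and of 3.57 (SE 0.43, adjusted p = 0.00278) in lymphatic barcodes. In cardiomyocyte and fibroblast barcodes Asns was at 6.03 (SE 0.36) and 3.94 (SE 0.55). Gdf15 had a log2 fold change of 6.24 (SE 0.89, adjusted p = 0.0231) in such other endothelial barcodes and of 5.28 (SE 0.33) in cardiomyocyte and 5.62 (SE 0.73) in fibroblast barcodes. Fgf21 averaged 0.0105 CPM in WT and 3.44 CPM in Taz-KO cardiomyocyte barcodes. The fitted change of 8.09 (SE 0.80) there thus rests on a WT level near 0. Its average in the Taz-KO endocardial sums was 8.67 CPM. Among members that did not pass, Atf4 itself was at 0.85 (SE 0.32, edgeR adjusted p = 0.627) and Sesn2 at 1.97 (SE 0.45, adjusted p = 0.189). Atf4 and Sesn2 are named after their values were seen, and Ddit3 was not analysed here.

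ATF4 binds composite elements whose core reads TGATGNAA, or TTNCATCA on the other strand. These letters were looked for on both strands in RefSeq promoter windows (GRCm38.p6, 250 bases before to 50 after the start) because the 7 called genes moved together. The windows of 6 of the 7 were at hand, 3 of them held the letters once, and 3.97% of 32851 windows did. A match is a description and not a site. The matches are shown in capitals, with the bases before the start of Asns (chr6:7693210-7693459, minus strand) and Fgf21 (chr7:45615491-45615740, minus strand) and 30 bases around the match of Trib3 (chr2:152344028-152344057, minus strand).
Asns: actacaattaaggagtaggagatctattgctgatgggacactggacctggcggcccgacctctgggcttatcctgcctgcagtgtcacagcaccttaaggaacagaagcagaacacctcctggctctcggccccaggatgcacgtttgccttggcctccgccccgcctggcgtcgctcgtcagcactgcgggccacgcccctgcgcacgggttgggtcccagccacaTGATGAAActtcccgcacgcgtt
Fgf21: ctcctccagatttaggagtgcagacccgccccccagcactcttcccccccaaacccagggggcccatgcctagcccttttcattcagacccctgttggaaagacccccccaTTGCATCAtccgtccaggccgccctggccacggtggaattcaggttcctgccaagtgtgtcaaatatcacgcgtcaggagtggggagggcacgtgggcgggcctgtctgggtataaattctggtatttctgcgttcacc
Trib3: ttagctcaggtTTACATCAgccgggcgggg
The match lay 23 bases before the start of Asns, 139 bases before that of Fgf21 and 14 bases after that of Trib3. The windows of Gdf15, Phgdh and Mthfd2 did not hold these letters.

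The other called genes were of several kinds. Vmn2r3, annotated as a vomeronasal receptor, had 2 UMIs in the 4 WT sums and 505 in the Taz-KO sums, a ratio of 403 (exact 95% interval of counting 111 to 3338, edgeR adjusted p = 5.56e-05). It was at 0.315 of its library level, and its log2 fold change was 9.68 (SE 0.60) in cardiomyocyte barcodes. Tenm4, a teneurin adhesion protein, was at 7.40, 9.01, 5.97 and 3.42 CPM in WT and at 50.04, 175, 141 and 206 CPM in Taz-KO (log2 fold change 4.43, SE 0.40, adjusted p = 0.00110). The whole libraries held 10.97 CPM in WT and 776 CPM in Taz-KO of it, and it stood at 0.192 of the library level. Among lower genes, Strit1, a small muscle peptide that acts on the SERCA calcium pump, had 197 UMIs in WT and 3 in Taz-KO, a ratio of 41.1 (exact 95% interval 13.9 to 201, adjusted p = 0.0156). Rpl3l, a ribosomal protein of striated muscle, fell from 52.0 ± 19.8 to 8.93 ± 4.38 CPM (log2 fold change −2.21, SE 0.35, adjusted p = 0.0264). Trabd2b, a protease that inactivates Wnt ligands, was at 113, 102, 97.1 and 131 CPM in WT and at 40.7, 44.6, 57.0 and 61.3 CPM in Taz-KO (log2 fold change −1.14, SE 0.18, adjusted p = 0.0262). The noncoding genes Gm24474, Gm20757 and Gm26862 fell by 3.47, 3.88 and 3.15 on the log2 scale and stood at 0.223 to 0.271 of their library level. Rmst, also noncoding, had 66 UMIs in WT and 3 in Taz-KO, all 3 in replicate 2, a ratio of 13.8 (exact 95% interval 4.51 to 68.5, edgeR adjusted p = 0.0262). Its fitted log2 change ranged from −6.55 to −3.13 with 1 mouse left out. The 8 higher genes not described so far (Slc24a2, Fam227b, Tfcp2l1, Extl1, Slc5a1, Tex22, 4933431K23Rik and Gm12092) had log2 fold changes of 1.77 to 4.34 and stood at 0.164 to 0.419 of their library level.

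Gm15563 was the called gene that stood highest against its library. It is annotated as antisense at chr9:66572001-66582059. The sources used here do not state how strand was used in the counting, and whether reads of its partner entered its count was not tested. Gm15563 was at 32.2, 26.6, 31.1 and 28.9 CPM in WT and at 56.3, 53.4, 68.0 and 87.5 CPM in Taz-KO (log2 fold change 1.10, SE 0.19, edgeR adjusted p = 0.0470), and the groups did not overlap. It did not pass when any of WT replicates 1, 2 and 3 or Taz-KO replicates 1, 2 and 3 was left out, and over the alternatives its adjusted p ranged from 0.00223 to 1.00.

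**Figure D5:**
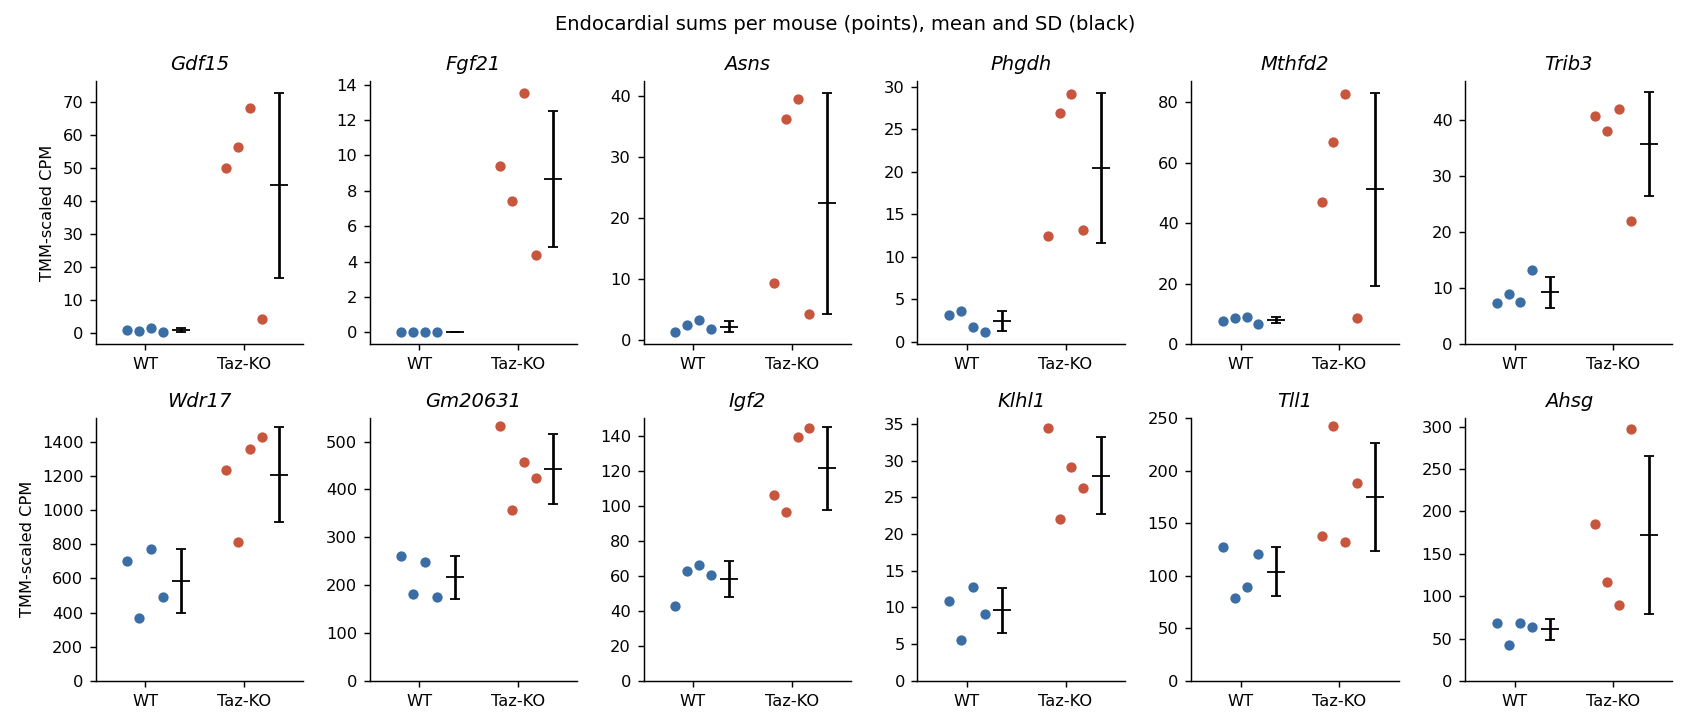
TMM-scaled CPM in the endocardial sums of each mouse for 6 called genes of the integrated stress response (upper row) and for 6 genes at least 2 times as high as in the library that did not pass (lower row), with mean and SD in black. Taz-KO replicate 4 lies near the WT mice for Gdf15, Asns and Mthfd2, where its value is 1 or 2 UMIs. The mice do not overlap in the lower row, where Igf2, Klhl1 and Ahsg were picked among genes without overlap.

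Of the 715 genes at more than 2 times their library level, none passed and 67 (9.37%) were at an unadjusted p of 0.05, 52 of them higher, beside 6.50% of all genes. Of the genes that follow, Igf2, Klhl1 and Ahsg are named after their values were seen. They were picked among genes whose mice did not overlap, so their lack of overlap was set by the choice. Over all genes tested, 1.98% were higher in Taz-KO without overlap. Igf2, the growth factor, was at 43.1, 63.1, 66.3 and 60.4 CPM in WT and at 106, 96.4, 139 and 144 CPM in Taz-KO (log2 fold change 1.05, SE 0.20, adjusted p = 0.0835). The mice did not overlap. Wdr17 was at 1.05 (SE 0.26, adjusted p = 0.237), the antisense gene Gm20631 at 1.03 (SE 0.20, adjusted p = 0.0868) and Klhl1 at 1.49 (SE 0.29, adjusted p = 0.0868), each with no overlap. Gm20631 lies within Hmcn1 on the opposite strand (chr1:150625266-150783499 in chr1:150562524-150993435), and whether reads of Hmcn1 entered its count was not tested. Ahsg, which encodes the plasma protein fetuin-A, was at 1.40 (SE 0.34, adjusted p = 0.247), also with no overlap. Its highest values, 185 and 298 CPM, were those of the thin Taz-KO replicates 1 and 4, against 116 and 89.4 CPM in the other 2, and without the thin mice Ahsg was at 0.77 (adjusted p = 0.345). Wdr17 was 74.9 CPM in the WT and 212 CPM in the Taz-KO libraries as a whole. Igf2, Gm20631, Klhl1, Ahsg and Wdr17 also had positive changes in other cell groups of the same libraries. Klhl1 was at 1.35 (SE 0.54, edgeR adjusted p = 0.137) in cardiomyocyte and 0.69 (SE 0.42) in fibroblast barcodes. In other endothelial barcodes taken from 2 times the library level Klhl1 was at 0.28 (SE 0.60). Igf2 was at 1.68 (SE 0.57, adjusted p = 0.410) in other endothelial barcodes taken from 2 times the library level and at 1.37 (SE 0.44, adjusted p = 0.558) in lymphatic barcodes. Gm20631 was at 1.79 (SE 0.26) in fibroblast and 1.53 (SE 0.25) in cardiomyocyte barcodes and passed in both (adjusted p = 0.0273 and 0.00274). Ahsg was at 2.11 (SE 0.41, adjusted p = 0.0811) and Wdr17 at 0.88 (SE 0.28, adjusted p = 0.550) in lymphatic barcodes. With DESeq2, 9 genes of this kind passed, among them Igf2, Gm20631, Klhl1 and Ahsg.

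Among the other leading endocardial genes, Col4a3 was at −0.55 (SE 0.21, edgeR adjusted p = 0.605), Epha7 at −0.47 (SE 0.21, adjusted p = 0.752), Fgf14 at −0.72 (SE 0.32, adjusted p = 0.758) and Itgbl1 at −0.59 (SE 0.26, adjusted p = 0.758). Hmcn1 at 0.11 (SE 0.20), Prkg1 at 0.01 (SE 0.23) and Cdh11 at −0.17 (SE 0.22) moved by less than their errors. Of 20 leading genes none passed.

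Lower genes that did not pass, taken by their p among those with no overlap, were Grm7 at −1.65 (edgeR adjusted p = 0.0508), Ebf2 at −1.26 (adjusted p = 0.0812), Lrfn2, Myot, Pcdhga11, Ogdhl, Gm15543 and Phkg1 (adjusted p = 0.145 for the last). Myotilin (Myot) and the phosphorylase kinase gene Phkg1 are muscle genes. Apart from Pcdhga11 they stood below their library level.

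No gene passed in the other lists of pathways, so each is given by its values. In the neuregulin and ErbB list, with 6 genes tested, Nrg4 was at 0.90 (SE 0.41, edgeR adjusted p = 0.784) and the receptor gene Egfr at −0.54 (SE 0.26, adjusted p = 0.809). Without both thin mice Nrg4 was at 0.58 and Egfr at −0.31. Of 18 Notch genes, 13 had a negative change and the median was −0.16. The Notch effector gene Rbpj was at 510, 474, 535 and 606 CPM in WT and at 200, 442, 391 and 411 CPM in Taz-KO, which did not overlap (log2 fold change −0.55, SE 0.23, adjusted p = 0.702, or 0.0171 under the subtraction per mouse). The coactivator gene Maml1 was at −0.26 (adjusted p = 0.952). Of 28 genes of BMP and TGF-beta signaling, the inhibitor gene Bmper was at −0.88 (SE 0.26, adjusted p = 0.331) and Smad9 at −0.85 (SE 0.36, adjusted p = 0.718), with a median of −0.01. In the list of 13 VEGF and angiopoietin genes the Tie2 ligand gene Angpt1 was at −0.81 (SE 0.23, adjusted p = 0.318), which turned to 2.09 under the subtraction per mouse, and the coreceptor gene Nrp1 at −0.42 (SE 0.23, adjusted p = 0.856).

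Among 18 genes of natriuretic peptides, endothelin and nitric oxide, the endothelin receptor gene Ednra was at 0.99 (SE 0.27, edgeR adjusted p = 0.289) and Ramp2, which pairs with the adrenomedullin receptor, at 0.53 (SE 0.25, adjusted p = 0.792). Ednra stood at 0.228 of its library level, and without both thin mice it passed at 1.28 (edgeR adjusted p = 0.0380). In the flow response list of 16 genes, Ccm2, a scaffold of the cerebral cavernous malformation complex, was lower in all Taz-KO mice at 52.5 to 78.2 CPM against 88.7 to 106 CPM (log2 fold change −0.51, SE 0.16, adjusted p = 0.426). Adamts5, a protease of versican, was at −0.54 (adjusted p = 0.851) and turned to 2.40 under the subtraction per mouse. Matrix genes were at a median of −0.18 over 22 tested, with Lama5 at −0.50 (adjusted p = 0.738) and Fbn1 at −0.49 (adjusted p = 0.771), and these turned to 0.95 and 0.49 under that subtraction. Genes of the endothelial to mesenchymal transition were at a median of 0.13 over 14 tested, with Acta2 at 1.38 (SE 0.44, adjusted p = 0.504) and Postn at 0.91 (SE 0.35, adjusted p = 0.638). The smooth muscle markers, which share Acta2, summed to 54.8 ± 24.2 CPM for WT and 109 ± 50.04 CPM for Taz-KO (SD, n = 4 each, exact permutation p = 0.171). Without both thin mice the difference in this sum was 97.4 CPM in place of 54.1 CPM (exact permutation p = 0.0667, the smallest possible), and Acta2 was at 1.73. The part of such cells was not tested.

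The 17 junction genes were at a median of −0.06, with Jam2 at −0.32 (edgeR adjusted p = 0.853). Among 19 genes of adhesion and inflammation, Icam2 was at 0.60 (SE 0.22, adjusted p = 0.572) and the NF-kappa-B inhibitor gene Nfkbia at 0.44 (SE 0.18, adjusted p = 0.702). Of 11 genes of hemostasis, the tissue factor inhibitor gene Tfpi was at 0.32 (adjusted p = 0.841) and Vwf at −0.34 (SE 0.24, adjusted p = 0.939). Genes of fatty acid and glucose uptake were at a median of −0.01 over 13 tested, with Cd36 at −0.67 (adjusted p = 0.784) and Lpl at −0.91 (adjusted p = 0.848). Without both thin mice Cd36 was at −0.28 and Lpl at −0.52.

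Fatty acid oxidation had 17 of 18 genes with a negative change and a median of −0.40, and none was at an unadjusted p of 0.05. Acadm, a medium-chain dehydrogenase, was at −0.68 (SE 0.32, edgeR adjusted p = 0.792) and the carnitine transferase gene Cpt1a at −0.51 (SE 0.25, adjusted p = 0.825), or 0.45 under the subtraction per mouse. The summed cardiomyocyte markers had all 10 genes with a negative change and a median of −0.56, at 11311 ± 5011 CPM in WT and 7717 ± 4295 CPM in Taz-KO (SD, n = 4 each, exact permutation p = 0.286). Without both thin mice the difference in this sum was −112 CPM in place of −3594 CPM (exact permutation p = 0.933), with Acadm at −0.49 and Cpt1a at −0.32. The part of cardiomyocyte RNA in the values of fatty acid oxidation was not tested. Heat shock genes were at a median of 0.41 over 16 tested, with Hspe1 at 1.06 (adjusted p = 0.736) and Dnaja1 at 0.51 (adjusted p = 0.858). Clock genes were spread within genotypes: Arntl was at 8.46, 16.0, 74.1 and 142 CPM in WT and at 3.13, 19.3, 17.8 and 13.1 CPM in Taz-KO (adjusted p = 0.814), and Npas2 varied alike with an adjusted p of 0.863. The time of day of collection is not given in the sources used here.

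The remaining lists were the immediate early genes, at a median of 0.05 with Nr4a1 at −0.67 (edgeR adjusted p = 0.805) and Ier3 at 0.71 (adjusted p = 0.851), hypoxia and glycolysis, at a median of 0.19 with Pfkfb3 at 0.37 (adjusted p = 0.918) and Hif3a at 0.72 (adjusted p = 0.946), and the glucocorticoid response, at a median of 0.59 over 9 tested with Sgk1 at 0.71 (SE 0.23, adjusted p = 0.461) and Cdkn1a at 0.88 (adjusted p = 0.882). None of their genes passed.

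Cycling markers (Mki67, Top2a, Cenpf and Kif11) summed to 26.0, 35.3, 29.5 and 26.1 CPM in WT and to 70.1, 51.6, 53.2 and 220 CPM in Taz-KO. The groups did not overlap (exact permutation p = 0.0286, the smallest the design allows), but the value did not pass over 18 such sums (Benjamini-Hochberg adjusted p = 0.514). In Taz-KO replicate 4 the sum came from 49 UMIs, 42 of them in 1 barcode, and without that barcode it was 33.1 CPM, within the WT range. In Taz-KO replicate 1 it came from 22 UMIs, 11 of them in 1 barcode, and without that barcode it was 36.8 CPM. Without both thin mice the difference between the means was 23.2 CPM (exact permutation p = 0.0667, the smallest that 2 against 4 mice allow). Nuclei with at least 3 such UMIs were 2, 4, 4 and 3 in the WT and 2, 9, 8 and 1 in the Taz-KO mice.

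Whether changes in the endocardium differ from those in other endothelium was tested by an interaction with the mouse as block. The other endothelial barcodes had the endothelial genes at 5 times the library level or more and the endocardial, cardiomyocyte, fibroblast and lymphatic genes at or below it, and Taz-KO replicate 1 had 7 of them. Of 12881 genes, 7 passed (0.0543%), 4 with a more positive and 3 with a more negative change in the endocardium. Tll1, a protease that activates BMP ligands and is needed for septation of the heart, was on average 105 CPM in WT and 176 CPM in Taz-KO endocardium and 31.7 and 11.7 CPM in other endothelium (difference in log2 fold change 1.57, SE 0.27, edgeR adjusted p = 0.00383). In the endocardium alone its change was 0.76 (SE 0.23, adjusted p = 0.391), and no Taz-KO mouse overlapped with a WT mouse. In lymphatic barcodes Tll1 lay at 311 to 834 CPM, with a change of −0.61 (SE 0.25, edgeR adjusted p = 0.891). Flrt2, an adhesion protein and ligand of Unc5 receptors, was at 492 and 404 CPM in endocardium and at 120 and 252 CPM in other endothelium (difference −1.23, SE 0.17, adjusted p = 1.47e-05). Cdkn1c, an imprinted inhibitor of the cell cycle, was at 23.2 and 28.6 CPM against 61.7 and 19.5 CPM (difference 1.44, SE 0.27, adjusted p = 0.00911). Mindy4 had a difference of −1.26 (adjusted p = 0.0127), 9530026P05Rik of 0.76 (adjusted p = 0.0415), Mfap5 of −0.83 (adjusted p = 0.0415) and Gm31243 of 1.91 (adjusted p = 0.0490).

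In all 7 of these genes the ratio of the group means was further from 1 in the other endothelium than in the endocardium. Without Taz-KO replicates 1 and 4, 5 genes passed, 4 of them among the 7, and Mindy4, 9530026P05Rik and Gm31243 did not pass (edgeR adjusted p = 0.0747, 0.0747 and 0.110). With other endothelial barcodes taken from 2 times the library level, which gave 199 to 2586 barcodes per mouse, no gene passed (606 of 14892 were at an unadjusted p below 0.05), and the 7 differences kept their direction at sizes of 0.57 to 0.92. The cause of the change in this count was not tested.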

How the data were processed

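Single-nucleus 3′ libraries (10x Genomics, version 3.1 chemistry) of 8 mouse hearts were used. For 32285 genes, the deposited values are UMI counts of each barcode from Cell Ranger 6.0.1 (mm10, introns included). The authors corrected for ambient RNA and removed doublets only afterwards, so neither step is in these counts. Samples were grouped by the genotype in the labels. Barcodes were chosen by the enrichment rule given above, and the counts of chosen barcodes were summed per mouse. Mitochondrial genes were left out.

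Genotypes were compared with edgeR 4.0.16 in R 4.3.3 (filterByExpr, TMM, robust quasi-likelihood F test) and, as an alternative, DESeq2 1.42.0. Gate genes stayed in the fit and out of the adjustment. Shares and summed marker levels were compared by exact two-sided permutation tests in Python 3.11.15 with scipy 1.17.1. Of these steps, only the edgeR comparison of genotypes was tried on simulated data, as endocardial sums per mouse. Members and lists were chosen with earlier results of these data known. Named genes were Taz, the rule's genes, list genes that passed and the 2 of lowest p in each list, the 10 largest called changes per direction without overlap (of lower genes, also the 10 of lowest p that did not pass), the genes with a called interaction, and 20 genes leading by ratio to other endothelial barcodes. Some genes that this rule names are not reported here. Comparison barcodes had enrichments of at least 5 (other endothelial, lymphatic), 2 (cardiomyocyte) or 3 (fibroblast). Positions of genes were taken from GENCODE vM21 (GRCm38, which is mm10). Depth limits the thin sums most: 3 UMIs are 9.38 and 13.1 CPM in Taz-KO replicates 1 and 4. Alternatives were other gates, a UMI floor of 1500, doublet suspects left out, subtraction of library RNA, other scaling and filters, and each mouse left out.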

Additional observations from a re-analysis of the deposited data

Results flagged for a closer look

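Chance sets apart about 1 in 20 groups of 4, and 5 of the 142 groups looked at had a mouse far from the other 3. The capillary markers summed to 1064 CPM in Taz-KO replicate 4, against 2348 to 2538 CPM in the other Taz-KO mice. The macrophage markers summed to 347 CPM in Taz-KO replicate 1, against 1037 to 1129 CPM. The cycling markers summed to 220 CPM in Taz-KO replicate 4, against 51.6 to 70.1 CPM, from 1 barcode that held most of their UMIs. Gm12092 was at 27.1 CPM in Taz-KO replicate 2, against 12.5 to 14.95 CPM. Rmst was at 0.541 CPM (3 UMIs) in Taz-KO replicate 2 and at 0 in the other 3, where 3 UMIs would be 1.07 to 13.1 CPM.

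The change between genotypes differed between endocardial and other endothelial barcodes in 7 genes by the interaction test of edgeR. The differences in log2 fold change, endocardial minus other endothelial, were −1.23 for Flrt2, 1.57 for Tll1, 1.44 for Cdkn1c, −1.26 for Mindy4, 0.76 for 9530026P05Rik, −0.83 for Mfap5 and 1.91 for Gm31243.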

How the results depend on the processing

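The number of genes at an adjusted p below 0.05 was 25. It was 106 without a filter on low counts, 61 with DESeq2, 46 without Taz-KO replicates 1 and 4 together, 13 with a stricter gate, 14 with ceilings of 0.5 on other cells, 0 with 20% ambient subtraction and, in 2 alternatives chosen after seeing the data, 0 with a subtraction set per mouse (318 at an unadjusted p below 0.05) and 1 among genes above their library level. Leaving out 1 mouse gave 7 to 47 (7 without Taz-KO replicate 2, 10 without Taz-KO replicate 3, 13 without WT replicate 3, 15 without WT replicate 1 or 2, 45 without Taz-KO replicate 4, 47 without WT replicate 4). The 25 genes kept their direction in all 424 comparisons in which they were still tested and their side of the threshold in 316. Comparisons in which a gene was no longer tested are not in this count. Of the 25 genes, 9 were still tested with 20% ambient subtraction, 3 with the subtraction set per mouse and 3 among genes above their library level. At the study's thresholds the count was 1. It was 6 with RLE scaling or a UMI floor of 1500, 25 without the filter, 5 without both thin mice, 3 and 2 with the stricter and looser gate, 4 without doublet suspects, 21 with DESeq2, 0 in both subtractions and above the library level, and 0 to 10 with 1 mouse left out (10 without WT replicate 4, 3 and 2 without Taz-KO replicates 4 and 1, 0 without Taz-KO replicate 2 or 3).

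The difference in the share of endothelial barcodes, −0.29 percentage points, became 0.11 with the looser gate, −0.971 with the stricter gate and −2.49 for barcodes thinned to 800 UMIs. Of all barcodes it was −0.407, and 0.13 when thinned. The difference of endothelial barcodes ranged from −1.30 to 1.27 with 1 mouse left out (1.27 without Taz-KO replicate 1), and was 0.54 without both thin mice (chosen after seeing the data). The count of interactions, 7, was 14 without the filter, 0 with the wider gate of other endothelium (chosen after seeing the data), and 2 to 8 with 1 mouse left out (2 without WT replicate 3 or Taz-KO replicate 2, 3 without WT replicate 2, 4 without WT replicate 4 or Taz-KO replicate 3). With 1 mouse left out, the change of Smoc1 ranged from −0.40 to −0.0607, that of Chrm3 ranged from −0.0719 to 0.29 and that of Cemip2 from −0.0125 to 0.23. Without both thin mice Smoc1 was at −0.60, Chrm3 at −0.226 and Cemip2 at −0.0854. Without both thin mice, the differences in mitochondrial share (4.41 points), venous (−11.9 CPM), macrophage (158 CPM) and lymphocyte markers (1.95 CPM) turned direction, and none had passed. Without these mice the changes of Pfkfb3 (0.05), Dnaja1 (0.13), Adamts5 (−0.26) and Fbn1 (−0.23) were smaller than with all mice. Under the subtraction per mouse, Rbpj (0.0171), Angpt1 (2.09), Adamts5 (2.40), Lama5 (0.95), Fbn1 (0.49), Lclat1 (0.38) and Cpt1a (0.45) turned direction, none of them called. The cause of these changes was not tested. No paired analysis was run, because the labels give each mouse a number of its own and none that WT and Taz-KO mice share. The replicate numbers used here only name mice, in the order of the labels.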
